A study of Mus musculus with 6 samples.

Results

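Integrins are heterodimeric receptors of an alpha and a beta subunit that bind matrix proteins outside the cell. Talins and kindlins switch them on and, with vinculin and the ILK complex, tie them to actin. The kinases FAK and SRC signal from the same sites through scaffolds of the Cas family. In the liver, stellate cells use these contacts to sense the stiffness of the matrix, and the integrins that contain the alpha v chain release latent TGF-beta from it. The genes described here are 36 integrin subunits and focal adhesion components, chosen by symbol from a named list. All 36 had a row in the deposited table of 24940 genes.

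Primary hepatic stellate cells of wild-type female C57BL/6JBomTac mice were kept in culture for 2 days and then exposed for 3 h to 5 µM forskolin, which activates adenylyl cyclase directly and so raises cAMP, or to the solvent DMSO. Both groups thus held cells that had spent 2 days in a dish without other treatment. Each group had 3 RNA-seq libraries of polyadenylated RNA, replicates A, B and C. Whether A, B and C are separate cell preparations is not in the labels. The p-values below therefore cover the spread among these libraries, possibly a technical one.

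Library totals ran from 2770629 to 10607997 counts, and both C libraries were the shallowest. CPM denotes counts scaled to one common library size. Log2 CPM correlated across genes at 0.980 between forskolin A and B and at 0.972 between DMSO A and B, against 0.925 to 0.930 for the pairs within a group that held a C library. Results are therefore also given without both C libraries. That choice was made from these same data and takes out the most divergent libraries, which narrows the spread within groups. The small p-values of that fit are thus no separate support. The cAMP-induced genes Nr4a1 and Crem stood 3.44 and 3.53 higher with forskolin on the log2 scale. All 15 stellate cell markers listed had counts, summing to 1735 to 2093 CPM with forskolin and to 1746 to 1964 CPM in DMSO. Reln was the largest part, at 498 to 655 CPM with forskolin and 481 to 627 CPM in DMSO. Of the 15, Hand2 alone passed the test described below, at 83.7 to 110 CPM with forskolin against 34.4 to 61.0 CPM in DMSO. Hepatocyte markers summed to 56.3 to 69.9 CPM with forskolin and to 21.8 to 28.9 CPM in DMSO, and all 10 had counts; the transferrin gene Trf made up most of this, and without it the sums were 6.44 to 26.3 and 8.59 to 9.91 CPM. The endothelial marker sums were 6.50 to 14.8 CPM with forskolin and 9.48 to 18.5 CPM in DMSO, and those of Kupffer cells and macrophages 14.1 to 18.6 and 18.7 to 21.8 CPM, with Marco at 0 throughout and Adgre1 counted in 1 library. Marker sums were 2.85 to 5.41 and 1.48 to 5.29 CPM for leukocytes, 9.75 to 44.8 and 11.9 to 19.8 CPM for cholangiocytes, and 14.8 to 37.6 and 11.2 to 32.1 CPM for mesothelium and portal fibroblasts (forskolin, then DMSO), with 5 of 10, 3 of 8 and 2 of 10 markers at 0 in all libraries. Spp1 made up most of the cholangiocyte sum except in DMSO C, at 6.50 to 34.5 CPM with forskolin and 1.98 to 16.0 CPM in DMSO. Fbln2 made up most of the mesothelial and portal fibroblast sum, at 13.7 to 34.8 and 5.95 to 30.4 CPM. The part of these other cell types in the results was not tested. In bulk samples fewer cells of a type and less RNA per cell cannot be told apart.

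The comparison asked which adhesion transcripts differ after 3 h of adenylyl cyclase activation. One gene of the machinery stood out: Bcar1, which encodes the scaffold p130Cas, fell to 0.347 times its DMSO level, while neither the common integrin subunit gene Itgb1 nor any other member passed the test. Of the 36 members, 34 had enough counts to be tested, and 1 fell, 0 rose and 33 did not pass at a Benjamini-Hochberg adjusted p of 0.05 by edgeR's quasi-likelihood test over all 12233 genes tested. Of all tested genes, 2.80% were called, 2.22% higher and 0.572% lower, so a single call among 34 members is near the background. At an unadjusted p under 0.05 by the same test, 6 of the 34 members were higher and 1 of the 34 was lower. Of all tested genes 12.1% passed that limit, 6.81% higher and 5.26% lower. The share of members that were higher was thus above that of all genes, and the share lower was below it. The members were chosen with earlier results of these data known, so this cannot be read as an excess. DESeq2 called 2 higher and 1 lower (3.49% of all genes called), limma-voom 3 and 1 (3.94%), and edgeR's likelihood ratio test 2 and 1 (5.30%). The median log2 fold change was -0.04 over the tested members and 0.005 over all tested genes. Values of the 2 groups did not overlap for 7 tested members, or 20.6%, against 20.2% of all tested genes.

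The 33 members that did not pass were bounded with unequal precision. For 25 of them the 95% interval of the log2 fold change lay within 1 in either direction, that is, within 2-fold, and for 12 of them it lay within 0.5. The interval reached beyond 2-fold for the other 8, which were Itga2, Itga6, Itga7, Itga8, Itga9, Itgb3, Tln2 and Nedd9. A change of 2-fold in those 8 genes is thus within what these libraries allow.

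**Figure D1:**
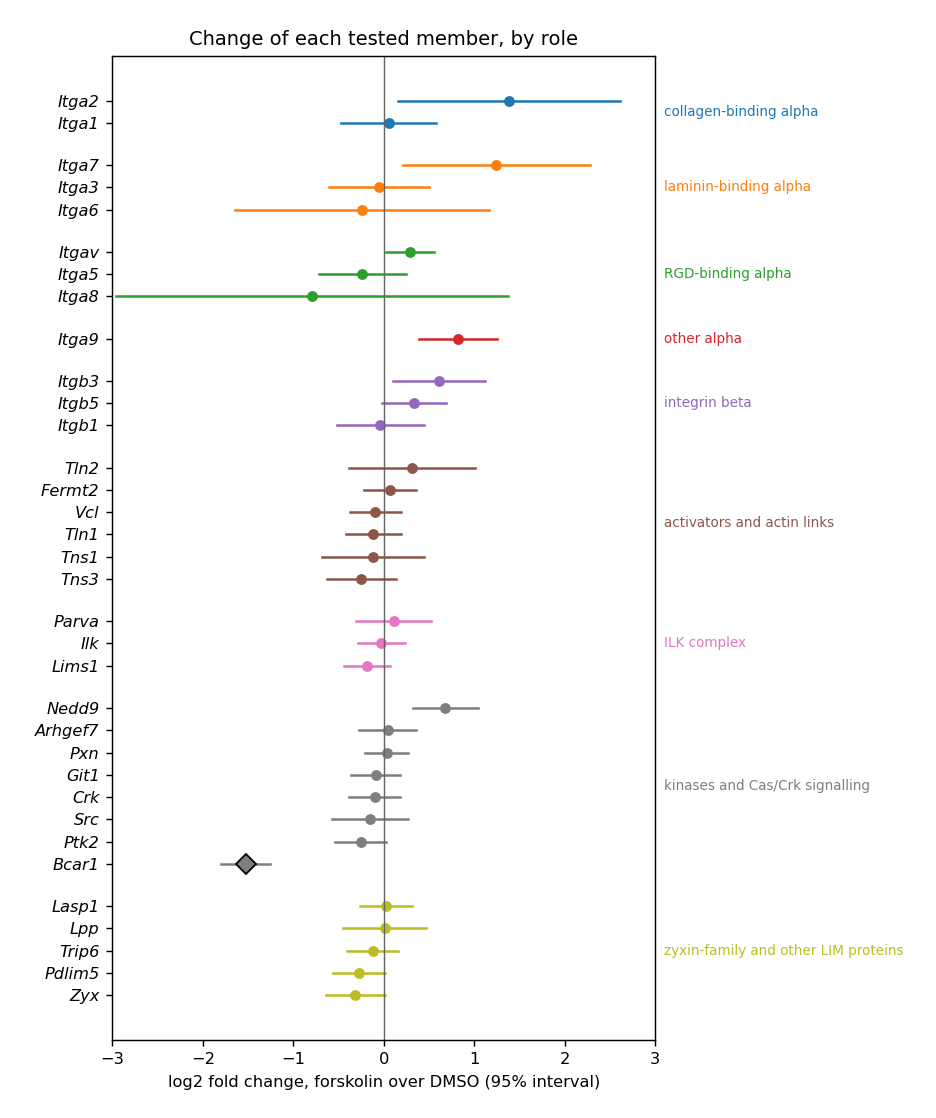
Log2 fold change of the 34 tested members, forskolin over DMSO, with 95% intervals and grouped by role; the diamond marks the member called at an adjusted p of 0.05. Bcar1 stands apart at -1.53, and the widest interval is that of Itga8, from -2.96 to 1.38.

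Without both C libraries, with 2 libraries in each group, 10 of the 34 members were called, 5 higher and 5 lower, while 9.76% of all 12597 genes tested there were called, 5.86% higher and 3.90% lower. The members called higher were Nedd9, Itga9, Itgb3, Itga7 and Itgav, and those called lower were Bcar1, Ptk2, Pdlim5, Zyx and Tns3. Limma-voom with sample quality weights, which gave the C libraries weights of 0.454 (forskolin) and 0.570 (DMSO) against 1.197 to 1.71 for the others, called Nedd9, Itga9, Itgb3 and Itga7 higher and Bcar1 lower. That fit called 8.04% of all genes, 4.86% higher and 3.18% lower. All 19 alternative settings called Bcar1.

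**Figure D2:**
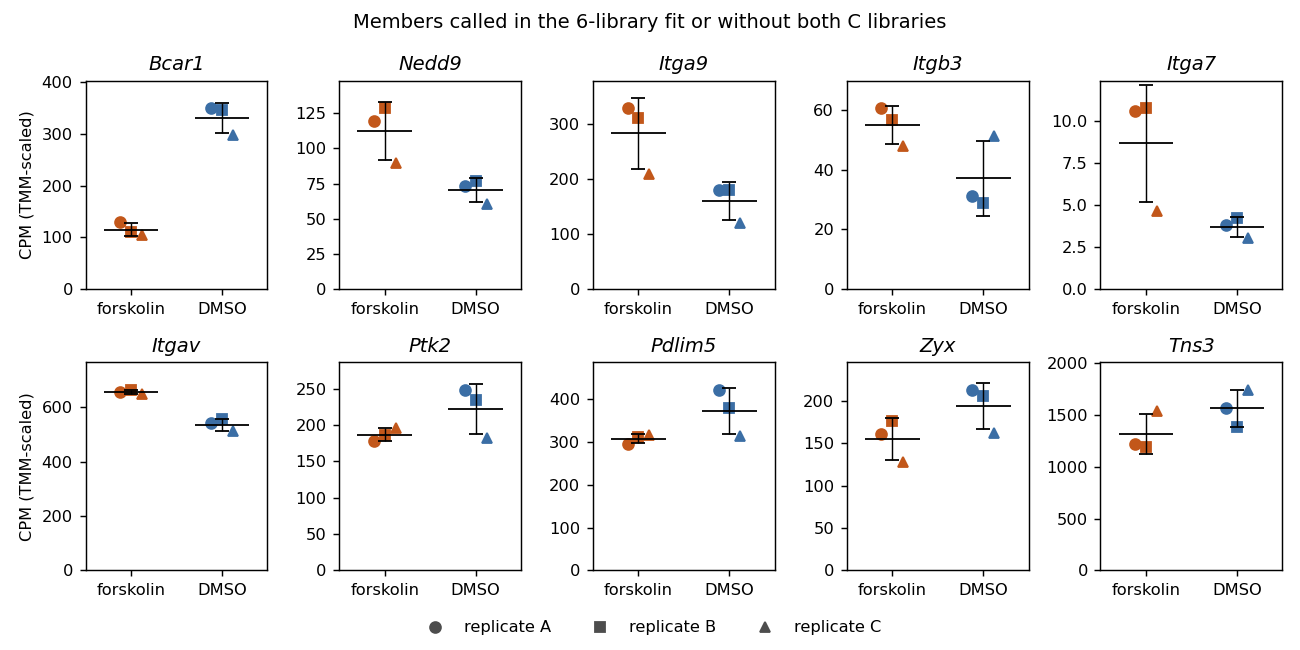
CPM of the 10 members called in the 6-library fit or without both C libraries, in each library (circles, replicate A; squares, B; triangles, C), with the mean and SD of each group. Bcar1 separates the groups in every library, whereas for Itgb3 DMSO C, at 51.5 CPM, lies among the forskolin values.

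Bcar1 lies on the minus strand of chromosome 8 at 111710475 to 111743849 (mm10). Its protein is phosphorylated by SRC and FAK at focal adhesions and recruits the adaptor CRK, and it is known as a sensor of mechanical stretch. The gene had 129, 111 and 104 CPM in forskolin A, B and C, against 350, 346 and 298 CPM in DMSO A, B and C. Every forskolin library was thus far below every DMSO library, and the highest forskolin value was less than the lowest DMSO value. The log2 fold change was -1.53 ± 0.12 (SE, adjusted p = 7.5e-05), and it lay between -1.62 and -1.46 over the 19 alternatives, with adjusted p at most 0.00111. Without both C libraries it was -1.54 ± 0.08. No other row of the table overlaps Bcar1.

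Nedd9, also called HEF1 or CAS-L, is the other abundant Cas family gene of these cells, on the minus strand of chromosome 13 at 41309916 to 41487360 (mm10). It had 119, 129 and 89.4 CPM in forskolin A, B and C, against 73.4, 76.6 and 60.7 CPM in DMSO A, B and C. All forskolin values were higher than all DMSO values, and the C library was the lowest of each group. The log2 fold change was 0.68 ± 0.16 (SE, adjusted p = 0.0539), just outside the threshold. Of the 19 alternatives, 10 called it, among them RLE scaling (adjusted p = 0.0461), DESeq2 (adjusted p = 0.0139) and the fit without both C libraries (0.72 ± 0.10, adjusted p = 4.47e-05), while the adjusted p reached 0.252 without forskolin B.

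Per length, Bcar1 exceeded Nedd9 in every library, by a smaller ratio with forskolin. Levels here are CPM per kilobase of exon, which allows genes to be compared. Bcar1 stood at 40.7, 34.9 and 32.8 per kilobase in forskolin A, B and C, against 110, 109 and 94.0 in DMSO A, B and C. Nedd9 stood at 26.0, 28.0 and 19.5 in forskolin A, B and C, against 16.0, 16.7 and 13.2 in DMSO A, B and C. The ratio of Bcar1 to Nedd9 was 1.57, 1.25 and 1.69 in the forskolin libraries and 6.90, 6.54 and 7.12 in the DMSO libraries. The log2 ratio averaged 0.57 ± 0.23 with forskolin and 2.78 ± 0.06 in DMSO (SD, n = 3 each), a difference of -2.20 with no overlap. This pair was chosen after the values were seen, so the ratio is a description. An exact permutation test of the log2 ratio gave p = 0.1, the smallest value possible with 3 libraries per group, and so cannot decide. The 2 remaining Cas family genes were scarce: Efs had 0.496 to 0.655 per kilobase with forskolin and 0 to 0.682 in DMSO, and Cass4 had counts in DMSO A alone.

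**Figure D3:**
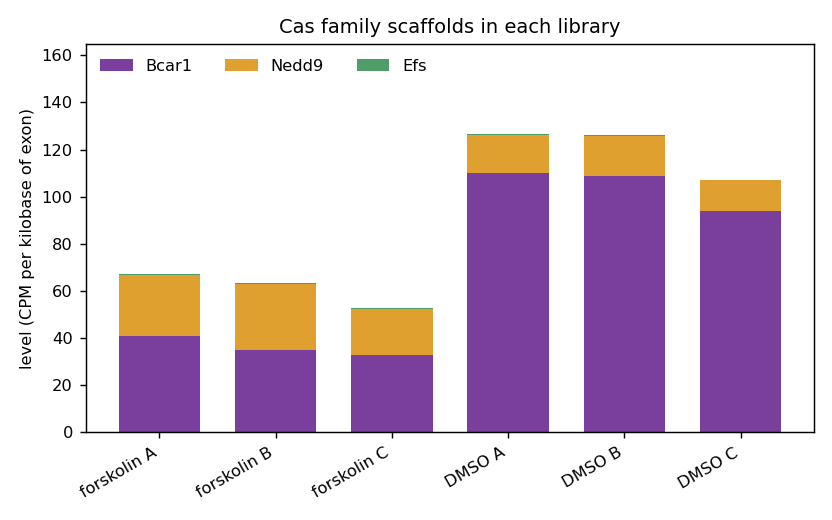
Levels of the Cas family genes Bcar1, Nedd9 and Efs in each library, stacked, in CPM per kilobase of exon; Cass4 is not drawn. The summed level is 53.0 to 67.3 in the forskolin libraries and 107 to 127 in the DMSO libraries, and Bcar1 makes up 55.1% to 62.0% of it with forskolin and 86.3% to 87.7% in DMSO.

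None of the other kinase and Cas/Crk genes passed the test with all libraries. Ptk2, which encodes FAK, the kinase that docks SRC at new adhesions, had 179, 186 and 196 CPM in forskolin A, B and C, against 249, 235 and 183 CPM in DMSO A, B and C. DMSO C lay among the forskolin values, so the groups overlapped. The log2 fold change was -0.26 ± 0.13 (adjusted p = 0.484) with all libraries and -0.41 ± 0.08 (adjusted p = 8.23e-04) without both C libraries. Src had 105, 114 and 71.5 CPM with forskolin and 123, 117 and 85.4 CPM in DMSO, at -0.15 ± 0.19 (adjusted p = 0.869), and both C libraries were the lowest of their group. The paxillin gene Pxn, whose protein is a docking hub for FAK and vinculin, was among the steadiest at 116 to 124 CPM with forskolin and 109 to 125 CPM in DMSO. Crk, the adaptor that reads phosphorylated p130Cas, was at -0.10 ± 0.13. Git1 and Arhgef7 (beta-PIX), which form a complex that brings PAK kinases to adhesions, were at -0.09 ± 0.12 and 0.04 ± 0.14.

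The promoter of Bcar1 is shown beside those of Trip6 and Vcl, a LIM protein gene and the vinculin gene, whose RNA did not pass the test. Both hold an SRF and a TEAD motif, and Trip6 also a cAMP response element. The windows span 250 bases before the start to 50 bases after it, from RefSeq on GRCm38.p6, at chr8:111743800-111744099 (minus strand), chr5:137314192-137314491 (minus strand) and chr14:20929148-20929447 (plus strand). Capitals mark matches, on either strand, to the cAMP response element TGACGTCA or its part TGACG, the TEAD core GGAATG, the AP-1 site TGANTCA and the SRF CArG box.
Bcar1: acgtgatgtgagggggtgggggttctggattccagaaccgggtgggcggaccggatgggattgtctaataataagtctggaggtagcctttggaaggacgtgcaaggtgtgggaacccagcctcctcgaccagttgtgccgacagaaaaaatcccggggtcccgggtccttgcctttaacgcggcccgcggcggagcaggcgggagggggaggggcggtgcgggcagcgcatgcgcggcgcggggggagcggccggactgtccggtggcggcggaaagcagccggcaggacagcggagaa
Trip6: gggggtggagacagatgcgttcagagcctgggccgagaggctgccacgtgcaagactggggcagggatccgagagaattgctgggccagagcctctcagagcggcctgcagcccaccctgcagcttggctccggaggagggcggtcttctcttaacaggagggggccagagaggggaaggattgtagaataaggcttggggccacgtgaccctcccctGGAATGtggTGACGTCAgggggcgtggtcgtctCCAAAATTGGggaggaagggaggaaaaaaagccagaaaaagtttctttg
Vcl: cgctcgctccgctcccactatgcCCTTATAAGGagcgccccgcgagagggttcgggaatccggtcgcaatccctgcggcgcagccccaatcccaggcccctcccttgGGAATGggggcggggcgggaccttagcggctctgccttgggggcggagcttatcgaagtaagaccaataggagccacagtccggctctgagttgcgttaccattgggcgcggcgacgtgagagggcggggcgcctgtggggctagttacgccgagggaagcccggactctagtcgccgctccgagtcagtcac
Bcar1 had no match in this window, nor in its other RefSeq window, and this says only that these letters are not there. Trip6 had a TEAD core, a full cAMP response element and a CArG box in a row, beginning 32 and 23 bases before the first transcribed base and 1 base after it. Its RNA was at 133, 122 and 103 CPM in forskolin A, B and C, against 137, 136 and 117 CPM in DMSO A, B and C, values that overlapped (log2 fold change -0.12 ± 0.13, adjusted p = 0.841).

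Windows at the deposited start were found for 25 members; for Itga9, Nedd9, Tns1 and Lpp the RefSeq window lay elsewhere, and Itga6, Itga7, Itgb3, Tln2, Pxn, Ptk2 and Parva had none. The CArG box stood in 3 of the 25 windows (Vcl, Trip6 and Fermt2, 12%), against 1.63% of all 32851 windows. The TEAD core stood in 3 (Vcl, Trip6 and Itgb1, 12%), against 14.7% of all windows. The full cAMP response element stood in 1 (4%, against 1.79%), its part TGACG, which the full element contains, in 5 (20%, against 20.8%), and the AP-1 site in 1, Zyx (4%, against 7.81%). None of the members with a match was called in the 6-library fit, and Zyx alone was called without both C libraries. A match is a description of the letters and not evidence of binding.

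Among the integrin alpha genes, Itga9 showed the clearest difference, though it too fell short of the threshold. Its product pairs with the beta 1 chain and binds tenascin-C, osteopontin and VCAM-1. Itga9, on chromosome 9 at 118606709 to 118901003 (mm10, plus strand), had 329, 312 and 209 CPM in forskolin A, B and C, against 180, 181 and 121 CPM in DMSO A, B and C. The groups did not overlap, and the C library was the lowest in each. The log2 fold change was 0.82 ± 0.19 (adjusted p = 0.0591), and 9 of 19 alternatives called it. Without both C libraries it was 0.82 ± 0.07 (adjusted p = 9.92e-08), and without DMSO C alone it was 0.66 with an adjusted p of 0.158.

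The subunits that bind the RGD sequence of fibronectin and vitronectin are encoded by Itgav, Itga5 and Itga8. Itgav, the most abundant alpha gene, had 658, 666 and 648 CPM in forskolin A, B and C, against 542, 556 and 513 CPM in DMSO A, B and C. All forskolin values were higher, by a small amount that the replicates repeated closely (0.29 ± 0.12, adjusted p = 0.342, and 0.26 ± 0.07, adjusted p = 0.0239, without both C libraries). Itga5, the alpha chain of the fibronectin receptor, had 81.9, 77.7 and 41.2 CPM in forskolin A, B and C, against 80.8, 81.8 and 79.3 CPM in DMSO A, B and C. Its log2 fold change of -0.24 ± 0.22 (adjusted p = 0.79) rested on forskolin C, and without both C libraries it was -0.03. Itga8, which the stellate cells of a living liver are known to carry, was nearly absent, with 1.25, 2.42 and 0 CPM in the forskolin libraries and 1.46, 2.73 and 3.05 CPM in the DMSO libraries (log2 fold change -0.79 ± 0.98, adjusted p = 0.869). Its row in the table is a noncoding RefSeq transcript, so these counts may not describe the coding one.

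The laminin- and collagen-binding alpha genes were low. Itga3 had 29.5 to 55.2 CPM with forskolin and 37.2 to 59.4 CPM in DMSO. Itga7, a laminin receptor chain best known from muscle, had 10.6, 10.8 and 4.66 CPM in forskolin A, B and C, against 3.79, 4.25 and 3.05 CPM in DMSO A, B and C. Every forskolin value was higher than every DMSO value, at 1.24 ± 0.46 (adjusted p = 0.287, and adjusted p = 0.0245 without both C libraries). Itga2, the collagen receptor chain of platelets and epithelia, had 9.79, 5.39 and 4.66 CPM with forskolin, against 2.63, 3.14 and 1.69 CPM in DMSO (1.39 ± 0.55, adjusted p = 0.327). Its neighbour on chromosome 13, Itga1, the collagen receptor chain of mesenchymal cells, had 24.0, 27.5 and 21.8 CPM with forskolin and 19.98, 21.5 and 30.5 CPM in DMSO. For Itga1 the groups overlapped, and its log2 fold change of 0.06 ± 0.24 (adjusted p = 0.974) turned negative without forskolin B (-0.05), DMSO A (-0.06) or DMSO B (-0.02). Pelo lies within the span of Itga1 on the same strand, with a mean count of 519.5 and a log2 fold change of -0.01. Whether its reads entered the Itga1 counts was not tested. Itga6 had 1.17 to 4.17 CPM with forskolin and 3.79 to 4.07 CPM in DMSO. Itga11, a collagen receptor chain of myofibroblasts, stayed under 2 CPM in every library and was not tested.

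Summed per length by ligand class, the alpha genes came to 180, 177 and 144 CPM per kilobase in forskolin A, B and C, against 135, 143 and 125 in DMSO A, B and C. The forskolin sums were all higher than the DMSO sums, with forskolin C next to DMSO B. The RGD-binding class made up 65.7% ± 4.40 of the sum with forskolin and 71.1% ± 2.13 in DMSO (SD, n = 3 each). Itga9 made up 24.1% ± 2.86 with forskolin and 17.1% ± 2.83 in DMSO; its shares of 20.9% to 26.2% and 13.8% to 19.2% did not overlap, whereas the RGD shares did. The laminin-binding class was at 7.01% and 8.38% and the collagen-binding class at 3.16% and 3.45%. These sums are descriptions, with no test.

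**Figure D4:**
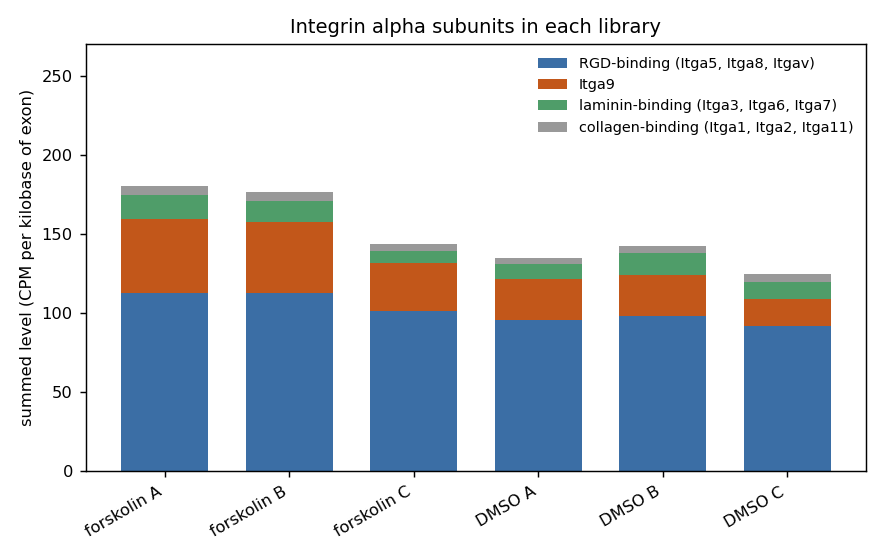
Summed level of integrin alpha genes in each library, stacked by ligand class, in CPM per kilobase of exon. The Itga9 segment averages 40.6 with forskolin and 23.0 in DMSO, and the RGD-binding segment 109 and 95.3.

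Of the beta genes, Itgb1, the common partner of most alpha chains, was the most abundant of all members per length, while Tns3 was higher in CPM. It had 1024, 972 and 1546 CPM in forskolin A, B and C, against 1149, 1015 and 1467 CPM in DMSO A, B and C. The C library was the highest in each group, and the ranges of the groups overlapped almost wholly (log2 fold change -0.04 ± 0.22, adjusted p = 0.984). The sign depended on single libraries, being positive when DMSO C (0.12), forskolin B (0.09) or forskolin A (0.06) was left out. Itgb3, the partner of alpha v in the vitronectin receptor, had 60.7, 56.7 and 48.2 CPM in forskolin A, B and C, against 31.2, 28.8 and 51.5 CPM in DMSO A, B and C. DMSO C alone stood with the forskolin libraries, and the log2 fold change of 0.61 ± 0.23 (adjusted p = 0.289) became 0.89 (adjusted p = 0.032) without it and 0.97 ± 0.15 (adjusted p = 1.29e-04) without both C libraries. Itgb5, another partner of alpha v, was at 0.33 ± 0.16 (adjusted p = 0.446). Itgb8 had counts in forskolin B and DMSO B alone, 7 and 5 of them, and was not tested.

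The genes that activate integrins and join them to actin were mostly abundant, and none passed the test with all libraries. Tln1, the main talin, had 866, 877 and 730 CPM in forskolin A, B and C, against 903, 902 and 873 CPM in DMSO A, B and C (-0.11 ± 0.14, adjusted p = 0.862). Vcl had 449, 428 and 391 CPM with forskolin, against 490, 465 and 398 CPM in DMSO (-0.09 ± 0.13, adjusted p = 0.88). Forskolin C was the lowest library for both genes. The kindlin gene Fermt2 had 507, 512 and 525 CPM with forskolin and 551, 488 and 429 CPM in DMSO (0.07 ± 0.13, adjusted p = 0.923), and the groups overlapped. Tns3, a tensin that links integrin tails to actin and the second most abundant member per length, had 1216, 1194 and 1535 CPM with forskolin, against 1563, 1380 and 1744 CPM in DMSO. Its log2 fold change was -0.25 ± 0.17 (adjusted p = 0.672) and, without both C libraries, -0.29 ± 0.08 (adjusted p = 0.0286). The groups overlapped, since forskolin C lay above DMSO B. Tns1 was at -0.12 ± 0.25, positive without forskolin C (0.07) or DMSO A (0.06), and Tln2, a talin with a narrower tissue range, at 0.31 ± 0.31.

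The complex of ILK, PINCH and parvin showed no call. Ilk, its pseudokinase, had 223, 224 and 239 CPM in forskolin A, B and C, against 254, 245 and 199 CPM in DMSO A, B and C (-0.03 ± 0.12, adjusted p = 0.974). DMSO C was the lowest library, DMSO A and B were the highest, and the forskolin values lay between them. Lims1 (PINCH-1) had 483 to 515 CPM with forskolin and 546 to 584 CPM in DMSO, which did not overlap (-0.18 ± 0.12, adjusted p = 0.633), and Parva was at 0.11 ± 0.19. Ilk overlaps Taf10 and Rrp8 on the opposite strand at its ends, and the library kit does not mark strand. Those genes were at 0.34 and -0.31 and were not called.

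None of the 5 LIM protein genes of mature adhesions passed the test with all libraries. Zyx, which encodes zyxin, a protein that moves to adhesions and stress fibres under tension, had 161, 177 and 128 CPM in forskolin A, B and C, against 214, 206 and 163 CPM in DMSO A, B and C. Forskolin B lay above DMSO C, and the log2 fold change was -0.32 ± 0.15 (adjusted p = 0.433), or -0.31 ± 0.08 (adjusted p = 0.0122) without both C libraries. Pdlim5, which ties kinases to alpha-actinin, had 295, 313 and 316 CPM with forskolin, against 422, 378 and 314 CPM in DMSO. DMSO C again fell among the forskolin values (-0.28 ± 0.13, adjusted p = 0.442, and -0.40 ± 0.08, adjusted p = 0.00105, without both C libraries). Lpp and Lasp1, a zyxin relative and an actin-binding LIM protein, were at 0.01 ± 0.21 and 0.02 ± 0.13, with signs that turned under some settings given further on.

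**Figure D5:**
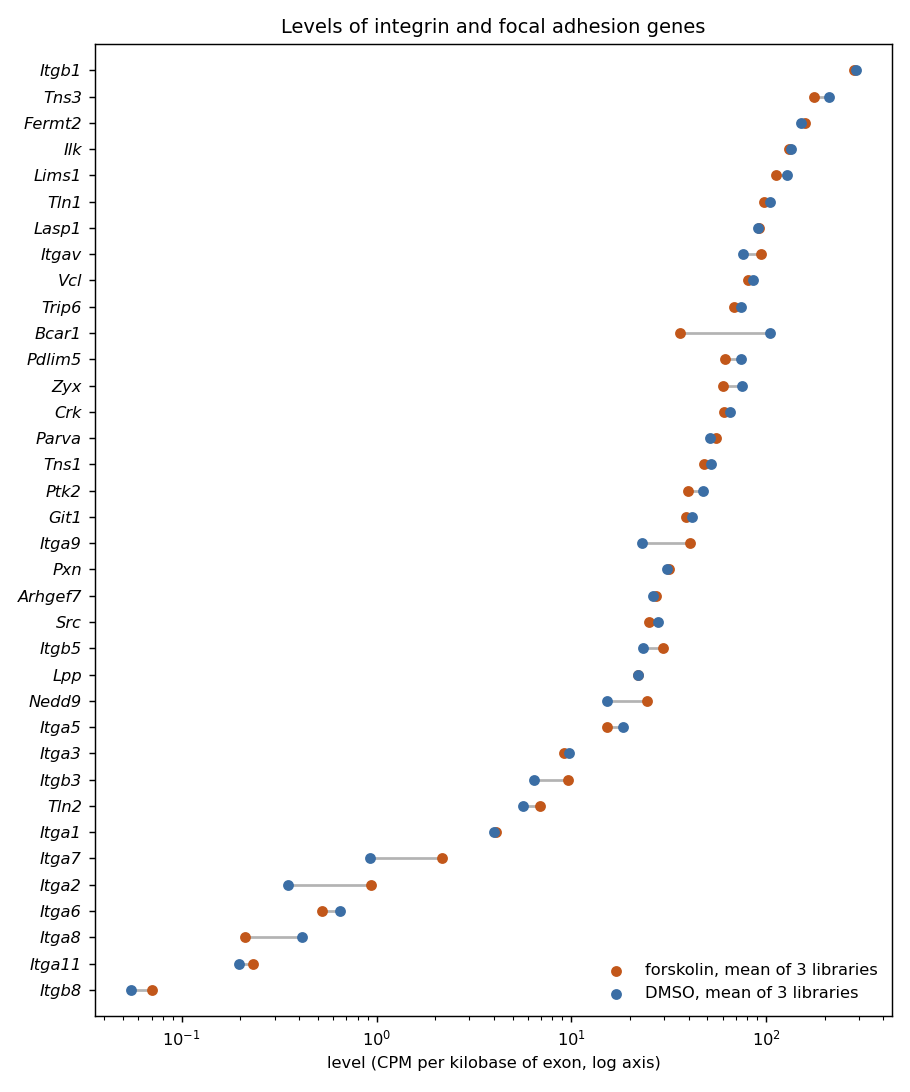
Mean level of each of the 36 members with forskolin and in DMSO, in CPM per kilobase of exon on a log axis, ordered by the mean over all 6 libraries. Itgb1 is at the top with 283 and 290, Itgb8 is at the bottom with 0.0704 and 0.0548, and Bcar1 shows the longest step among the abundant genes.

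Per length, the members spanned a wide range. After Itgb1 (283 ± 76.0 with forskolin and 290 ± 55.6 in DMSO, SD, n = 3 each) came Tns3 (177 ± 25.6 and 210 ± 24.5), Fermt2 (158 ± 2.92 and 150 ± 18.7) and Ilk (132 ± 5.29 and 134 ± 16.8), each in CPM per kilobase. In DMSO the levels of Fermt2 and Ilk lay within each other's SD, whereas Tns3 stood above Fermt2 by more than both SDs. Bcar1, at 104 ± 9.04 in DMSO, stood beside Tln1 at 105 ± 2.04; with forskolin it stood at 36.2 ± 4.09, beside Ptk2 at 39.8 ± 1.84.

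Genes that work with the members were counted in 7 further lists, which held 7 called genes among 134 tested, 3 higher and 4 lower, beside 2.80% of all tested genes, 2.22% higher and 0.572% lower. The fit that left out both C libraries made 27 calls among 135 of these genes, 14 higher and 13 lower, beside 5.86% and 3.90% of all genes. The lists were chosen with earlier results of these data known, so their share of calls cannot be read as an excess over the background. The 7 tested of 12 other integrin subunits gave 0 calls by edgeR, DESeq2 or limma-voom and without both C libraries, with 0 at an unadjusted p under 0.05, and stood at most at 9.57 CPM (Itga2b). Talin, kindlin and ILK partners (11 tested) gave 0 calls by edgeR's quasi-likelihood test, with 2 lower at an unadjusted p under 0.05. Kank2 was lower by the likelihood ratio test and by limma-voom, DESeq2 made 0 calls, and the fit without both C libraries called 1 higher and 2 lower (Kank1, Kank2 and Parvb). Inhibitors and traffickers of integrins (16 tested) and syndecans and other co-receptors (16 tested) gave 0 calls each by edgeR's quasi-likelihood and likelihood ratio tests, DESeq2 and limma-voom, with 1 each at an unadjusted p under 0.05. Among the co-receptors, quality weights called Cd47 higher, and the fit without both C libraries called Cd47 and Sdc3 higher. The medians of these 4 lists were 0.24, -0.01, -0.003 and -0.02.

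The calls fell in the remaining lists. Among Cas, Crk and FAK partners 1 of 27 rose: Pak1, a kinase activated by RAC and CDC42 that the GIT-PIX complex brings to adhesions. Pak1 had 42.8, 37.0 and 32.6 CPM in forskolin A, B and C, against 17.4, 21.4 and 15.6 CPM in DMSO A, B and C, with no overlap (1.04 ± 0.21, adjusted p = 0.0287). Among actin linkers and LIM proteins 1 of 28 rose and 2 fell. The one that rose was Tns2, a tensin related to Tns1 and Tns3, with 165, 168 and 173 CPM with forskolin, against 109, 106 and 90.8 CPM in DMSO (0.72 ± 0.11, adjusted p = 0.00472). Its forskolin libraries stood far above all DMSO libraries; whether Tns2 differed from Tns1 and Tns3 in its change was not tested. Ajuba, a zyxin relative, and Lima1, an actin-bundling LIM protein, fell by 1.85 and 0.43 on the log2 scale. Among integrin ligands and matrix genes 1 of 29 rose and 2 fell: Tgfb1, whose latent product alpha v integrins activate, was at 0.62 ± 0.10, and Cyr61 and Ctgf, matricellular ligands of integrins, were at -1.58 ± 0.15 and -1.06 ± 0.16. In this list limma-voom called 3 higher and 2 lower, DESeq2 and the likelihood ratio test 4 and 2 each, and the fit without both C libraries 7 and 2, with Fn1 and Lama5 among the added genes in each. For the Cas, Crk and FAK partners those counts were 2 and 0 by limma-voom and DESeq2, 2 and 1 by the likelihood ratio test and 3 and 4 without both C libraries, and for the actin linkers 1 and 3 by limma-voom, 2 and 3 by DESeq2, 2 and 4 by the likelihood ratio test and 1 and 5 without both C libraries. With all libraries the medians of these lists, in the order given, were -0.07, -0.06 and 0.07.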

How the data were processed

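RNA-seq was done on 3 forskolin and 3 DMSO libraries. The deposited table gives expected counts of exon reads per gene, which the authors left without adjustment per the file name; per the submitters' processing notes STAR, HOMER and mm10 were used, and the counting rule, annotation release and versions were not stated in labels or headers. The values come in steps of 0.5 and were rounded to whole numbers, ties to even. The authors deposited also a transcript length per gene, the other measure used, from which levels in CPM per kilobase were made. Columns of unknown samples numbered 0.

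All genes were fitted with edgeR 4.0.16 (R 4.3.3): filterByExpr kept 12233, TMM scaled the libraries, and robust quasi-likelihood F tests were adjusted by Benjamini-Hochberg over them and called at 0.05. CPM use TMM-scaled sizes of the filtered libraries; marker sums use whole totals. SEs are the absolute log2 fold change over the square root of F, and 95% intervals use the matching t quantile. DESeq2 1.42.0 and limma 3.58.1 served as alternatives. The test was checked on simulated counts with known changes. These kept the library depths but held no libraries that diverge as C does, so the check does not cover that divergence. Depth sets the precision: 3 counts equal 0.279 CPM in forskolin B and 1.17 CPM in forskolin C, for counting error only.

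The members and lists were chosen with earlier results of these data known. Named genes are the members called in the 6-library fit, without both C libraries or with quality weights, the 4 with the highest level per length, 11 well-known ones, and up to 3 called genes per further list; the other members are given by their values in short. Promoters come from RefSeq, GRCm38.p6, the assembly of mm10. Alternatives were other scalings (RLE, upper quartile, library sizes), filters (none, 1 CPM in 3 libraries, 10 CPM on average), unrounded values, DESeq2, limma-voom with and without quality weights, a block on the replicate letter, the likelihood ratio test, and libraries left out.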

Additional observations from a re-analysis of the deposited data

How the results depend on the processing

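Calls on members moved with the setting, while Bcar1 was called in all 19. The count of 1 became 2 with RLE factors, 3 with no filter, with a filter of 10 CPM on average, with DESeq2 and with the likelihood ratio test, 4 with limma-voom, 5 with sample quality weights and 10 without both C libraries; leaving out 1 library gave 1 to 3 (3 without forskolin C, 2 without DMSO C). The count over all genes, 342, became 620 with no filter, 984 with quality weights, 648 with the likelihood ratio test and 1229 without both C libraries, and leaving out 1 library gave 185 to 485 (forskolin A left out, 189; forskolin B, 207; DMSO A, 203; DMSO B, 185). Calls in the further lists numbered 27 without both C libraries and 7 with all libraries. With the replicate letter as a block, 4 members (Itga9, Itgav and Nedd9 higher, Bcar1 lower) and 649 genes were called. Same-letter libraries deviated together at correlations of 0.0476 (A), 0.133 (B) and 0.150 (C), and B and C correlated best with their own letter, but forskolin A best with DMSO B (0.103). The letters were not taken as pairs, since the labels do not say that they mark a shared isolation or day. These correlations cannot decide it, because each deviation was taken from a mean of 3 libraries that included the divergent C library. Whether same-letter libraries share a deviation was thus not decided. In the alpha composition, the RGD share differed by -5.41 percentage points (forskolin minus DMSO) and the Itga9 share by 7.07, with the same signs under RLE factors, without both C libraries and with each library left out.

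Of the member values under alternatives, 569 kept their direction and side of the threshold, 31 passed it with the same sign and 42 changed sign; the last came from 13 members, none of which was called in any setting. The cause was not tested. With library sizes alone Pxn was at -0.0078, Arhgef7 at -0.00067, Lpp at -0.024 and Lasp1 at -0.011; with upper quartile factors Lpp was at -0.017 and Lasp1 at -0.0051. With limma-voom Itga3 was at 0.0087 and Arhgef7 at -0.0053. With quality weights Itga3 was at 0.093, Itga6 at 0.045, Pxn at -0.020 and Arhgef7 at -0.041. Without both C libraries Itga3 was at 0.086, Itga6 at 0.11, Pxn at -0.042, Fermt2 at -0.033, Arhgef7 at -0.060 and Lpp at -0.017. Leaving out 1 library gave -0.056 to 0.25 for Itga1, -0.23 to 0.17 for Itga3, -0.47 to 0.088 for Itga6, -0.27 to 0.12 for Itgb1, -0.018 to 0.089 for Pxn, -0.29 to 0.0048 for Src, -0.35 to 0.075 for Tns1, -0.078 to 0.23 for Parva, -0.13 to 0.042 for Ilk, -0.017 to 0.17 for Fermt2, -0.10 to 0.15 for Arhgef7, -0.17 to 0.18 for Lpp and -0.052 to 0.11 for Lasp1. Depth limits genes of a few CPM: a level of 1.17 CPM is 3 counts in forskolin C, the shallowest library.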

Other observations

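The C libraries differed from A and B of their own group in a direction that the groups often shared. Among 33 tested members with counts, C was below the mean of A and B in both groups for 20, above it in both for 4 (Itgb1, Tns3, Crk and Arhgef7), and on opposite sides for 9. The same split over all tested genes was not counted, so it cannot be called particular to these members. For Itgb1 the C library stood 0.63 higher with forskolin and 0.44 higher in DMSO on the log2 scale. The mean of A and B was 2.43 counts per base of exon with forskolin and 2.14 in DMSO. For Tln2 the C library stood at -1.14 and -0.97 in that order, with means of A and B of 0.0865 and 0.0551 counts per base. For Tns1 it stood at -0.69 and -0.89, with means of 0.562 and 0.513. These values move with the replicate letter. Calls on members numbered 1 with all libraries and 10 without both C libraries. What set the C libraries apart was not tested.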
